A study of Mus musculus with 33 samples.

Results

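Brain RNA of Mcoln1 -/- mice and of their Mcoln1 +/- controls was compared at 3 months of age. The libraries were chosen by age alone, and 7 of the 33 in the series met that rule, 4 control and 3 Mcoln1 -/-. All 7 came from C57Bl/6J mice. The Mcoln1 -/- mice carry a disrupted Mcoln1 gene in every tissue, and the controls of this age are all labelled heterozygous (Mcoln1 +/-), so they too carry 1 disrupted copy and no wild-type library entered the comparison. The tissue is given as brain, without a region, and the labels give neither sex nor the animal behind each library. The p values therefore measure the spread between these libraries. Homogenised tissue was the source of the RNA, and the bulk MARS-seq protocol used reads the 3′ end of each transcript. Total counts were 3090039, 4422461, 3304119 and 2658886 in control libraries 1 to 4 and 2383995, 2161558 and 3010225 in Mcoln1 -/- libraries 1 to 3, so the medians were 3197079 and 2383995. The deepest library was thus a control and the shallowest an Mcoln1 -/- library. Levels are given as CPM, the counts of a gene relative to the library total after scaling by the TMM factors of edgeR.

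Mcoln1 encodes TRPML1, a channel in the lysosomal membrane. When it opens, calcium leaves the lysosome, and this calcium helps organelles to fuse and lets the cell adjust how many lysosomes it makes. Its loss causes mucolipidosis type IV (MLIV), a lysosomal storage disease of childhood in which the brain is poorly myelinated. Myelin is the lipid-rich sheath that oligodendrocytes wrap around axons, and microglia are the resident macrophages of the brain that take up debris, release complement and chemokines and respond to type I interferon (IFN).

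Mcoln1 (chromosome 8 of GRCm38, 3500457 to 3515232, plus strand) was measured at 45.1, 48.0, 53.5 and 46.3 CPM in the control libraries and at 8.82, 5.44 and 3.31 CPM in the Mcoln1 -/- libraries. These levels rest on 140, 213, 176 and 117 reads against 21, 12 and 10 reads, and every library sat on the side its label gives. Mean levels were 48.2 ± 3.69 CPM in controls (SD, n = 4) and 5.86 ± 2.78 CPM in Mcoln1 -/- mice (SD, n = 3). Mcoln1 thus fell, with a log2 fold-change of −3.07 and a standard error of 0.27 (edgeR adjusted p = 4.64e-05). The exact 2-sided permutation test gave p = 0.0571, the smallest value that 3 libraries against 4 allow. A 3′ tag reads the end of the transcript. Whether it covers the altered part of the gene cannot be told, because the place of that part is not given in the sources used here. The related channels Mcoln2 and Mcoln3 were not among the 13777 genes of the table.

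Of 11412 genes with enough counts to be tested, 5 were DE in the 3-month libraries (0.0438%), where a DE gene had to differ by 1.5-fold or more with an adjusted p no higher than 0.05. The 4 up-regulated genes (0.0351% of the genes tested) were Cxcl10, Lgals3bp, Lyz2 and Trem2, all of them known from activated microglia or from the response to interferon, and Mcoln1 was the 1 down-regulated gene (0.00876%). Unadjusted p was under 0.05 for 307 genes (2.69%). The ranges of the groups were wholly apart in 475 genes (4.16%), with the Mcoln1 -/- mice above the controls in 260 (2.28%) and below them in 215 (1.88%).

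Cxcl10, an interferon-induced chemokine that attracts T cells (chromosome 5, 92346638 to 92348889, minus strand), was measured at 3.55, 1.35, 0.608 and 1.19 CPM in the control libraries and at 7.56, 11.3 and 14.9 CPM in the Mcoln1 -/- libraries. The highest control reached less than the lowest Mcoln1 -/- library, and the controls had only 11, 6, 2 and 3 reads of the gene. It rose by a log2 fold-change of 2.75 (standard error 0.42, edgeR adjusted p = 0.0206). Lgals3bp, the secreted galectin-3-binding protein (chromosome 11, 118392751 to 118402092, minus strand), was at 28.4, 36.9, 19.5 and 24.6 CPM in controls and at 80.7, 55.3 and 78.1 CPM in Mcoln1 -/- mice. Its groups were likewise apart, and it rose by a log2 fold-change of 1.37 (standard error 0.21, edgeR adjusted p = 0.0206).

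Lyz2 encodes the lysozyme of macrophages, a lysosomal and secreted enzyme that cleaves bacterial walls (chromosome 10, 117277331 to 117282321, minus strand). Its levels were 23.5, 18.5, 15.8 and 24.6 CPM in controls and 44.1, 48.5 and 55.6 CPM in Mcoln1 -/- mice, and it rose by 1.28 on the log2 scale (standard error 0.20, edgeR adjusted p = 0.0206). Trem2 encodes the lipid-sensing receptor through which microglia enter the disease-associated state (chromosome 17, 48346401 to 48354147, plus strand). It rose from 25.8, 27.3, 30.1 and 31.3 CPM in controls to 52.1, 66.6 and 70.1 CPM in Mcoln1 -/- mice, by 1.14 on the log2 scale (standard error 0.17, edgeR adjusted p = 0.0206). In both genes all 3 Mcoln1 -/- libraries lay above all 4 controls.

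These 4 calls did not survive every change in the libraries used. Without control 4 or without Mcoln1 -/- library 3 Mcoln1 alone was called. Of the up-regulated genes, Cxcl10 alone remained without control 1 and Lgals3bp alone without control 2, while without control 3 Tyrobp alone was called and without Mcoln1 -/- library 2 it was C4b and Lgals3bp. Without Mcoln1 -/- library 1 all 4 remained and 8 genes in all were up-regulated, with Cd68, Cst7, Ctss and Tyrobp added. Over all alternatives the adjusted p of the 4 genes ranged up to 0.231 for Cxcl10 and up to 0.226 for the others, and their log2 fold-changes from 2.48 to 3.37 for Cxcl10, from 1.24 to 1.57 for Lgals3bp, from 1.17 to 1.37 for Lyz2 and from 1.05 to 1.26 for Trem2.

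**Figure D1:**
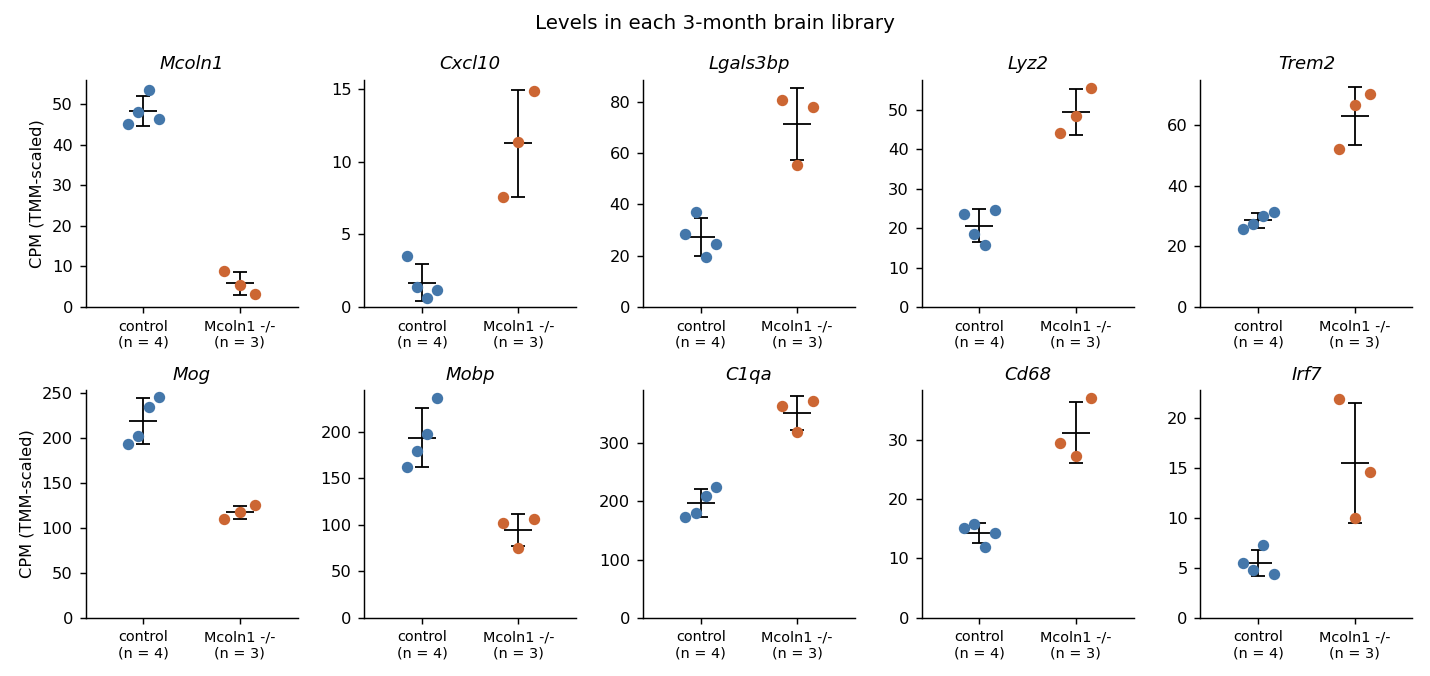
CPM (TMM-scaled, y axis from 0) of 10 genes in each 3-month library, with control libraries in blue and Mcoln1 -/- libraries in orange; bars give the mean and SD of each group. In each of the 10 genes the Mcoln1 -/- libraries lie apart from the controls, and the first 5 genes are those that passed the test.

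The 20 genes with the next smallest p values, none of them DE, held 9 genes of myelin and mature oligodendrocytes, 4 of the interferon response, 3 of complement and 2 more of the microglia list. The lists hold 490 of the tested genes in all, and they were drawn up with earlier results of these data known. A group of 4 genes shared an adjusted p of 0.0532, just outside the threshold. Mog, a glycoprotein of the outer myelin surface, was at 193, 202, 234 and 246 CPM in controls and at 110, 117 and 125 CPM in Mcoln1 -/- mice. Mobp, a basic protein of compact myelin, was at 162, 179, 197 and 236 CPM against 102, 74.8 and 107 CPM. C1qa, a chain of the first complement component, was at 173, 181, 210 and 225 CPM against 364, 320 and 373 CPM. Cd68, a membrane protein of macrophage lysosomes, was at 15.2, 15.8, 11.9 and 14.3 CPM against 29.4, 27.2 and 37.1 CPM. The groups did not overlap in any of these 4 genes, and their log2 fold-changes were −0.90, −1.03, 0.84 and 1.13.

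In a fit of all 23 libraries of the 1-, 2- and 3-month table, in which the spread was shared over ages, 31 of 11799 genes were called for the same 3-month difference (0.263%), 16 higher (0.136%) and 15 lower (0.127%). All 5 genes of the 3-month fit were among them. That fit assumes that the 3-month libraries vary as the younger ones do. Its log2 fold-changes for the 5 genes were equal to those above to the second decimal place, except for −3.08 for Mcoln1, and the added calls came with smaller p values. DESeq2 on the 7 libraries called 17 genes.

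Genes of myelin and mature oligodendrocytes lay lower in the Mcoln1 -/- mice almost throughout. Of 41 genes on the list, 40 were in the table and all 40 were tested. None was DE in the 3-month fit, 39 had a log2 fold-change below 0 (52.1% of all tested genes lay above 0) and in 21 (52.5%) every Mcoln1 -/- library lay below every control, against 1.88% of all tested genes. No gene of the list had all Mcoln1 -/- libraries above the controls. The median log2 fold-change of the list was −0.59, beside 0.01 for all tested genes, and it stayed between −0.70 and −0.55 over the 14 alternatives. In the fit with the shared spread 12 of the 40 were called, all lower. Less RNA per oligodendrocyte and fewer oligodendrocytes cannot be told apart in homogenised tissue.

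Most structural genes of the sheath had every Mcoln1 -/- library below the controls, though not all did. Mbp, the basic protein that compacts the membrane, was at 8119, 7873, 7742 and 9222 CPM in controls and at 4644, 4793 and 6946 CPM in Mcoln1 -/- mice. Its log2 fold-change was −0.59 with a standard error of 0.16 (edgeR adjusted p = 0.585). The third Mcoln1 -/- library was nearest to the controls. Mal, a proteolipid of compact myelin, was at 415, 487, 378 and 340 CPM against 150, 263 and 246 CPM, and Cldn11, which forms the tight junctions between the wraps, at 222, 208, 190 and 227 CPM against 125, 94.7 and 158 CPM. The groups overlapped in Mag, the adhesion protein of the innermost wrap, with 365, 273, 289 and 450 CPM against 275, 173 and 191 CPM.

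Gpr37, a receptor of maturing oligodendrocytes, was at 113, 105, 133 and 121 CPM in controls and at 68.9, 70.7 and 76.8 CPM in Mcoln1 -/- mice. Fa2h, which hydroxylates the fatty acids of myelin sphingolipids, was at 102, 97.5, 150 and 155 CPM against 82.8, 62.6 and 77.1 CPM. None of the 3 Mcoln1 -/- libraries reached a control in either gene, and their log2 fold-changes were −0.71 and −0.76. Trf, transferrin, the iron carrier that oligodendrocytes make in the brain, was at 653, 652, 583 and 573 CPM against 362, 386 and 450 CPM (log2 fold-change −0.62). Aspa, which frees acetate for lipid synthesis, had the lowest log2 fold-change of the list (−1.96) at a low level, between 3.56 and 6.69 CPM in controls and between 0.331 and 3.17 CPM in Mcoln1 -/- mice. That value was unstable and ranged from −3.16 to −1.41 over the 10 alternatives in which Aspa was tested.

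Summed over the 40 genes, the myelin list came to 16080, 16122, 16273 and 17640 CPM in the controls and to 10045, 10519 and 13284 CPM in the Mcoln1 -/- libraries, with Mbp the most abundant gene. The mean was 0.683 of the control mean. The median gene lay 0.58, 0.61 and 0.42 below the control mean on the log2(CPM + 0.5) scale in Mcoln1 -/- libraries 1 to 3, and between 0.08 below and 0.17 above it in the controls. Without Mcoln1 -/- library 3, the one nearest to the controls, the median log2 fold-change of the list was −0.70.

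Genes of oligodendrocyte precursors and newly formed oligodendrocytes did not share this pattern. Of 20 listed genes, all in the table, 15 were tested, none was DE and in none did the groups separate. Their median log2 fold-change was 0.08 (−0.0019 to 0.14 over the alternatives), and the lowest was that of Sox10, a transcription factor of the whole lineage that also stands on the myelin list, at −0.74. Sox10 was at 106, 93.5, 173 and 168 CPM in controls and at 105, 58.0 and 79.1 CPM in Mcoln1 -/- mice, with 1 Mcoln1 -/- library inside the control range. The list summed to between 1052 and 1095 CPM in controls and between 986 and 1096 CPM in Mcoln1 -/- mice. Whether the myelin list and this one differ in response was not tested.

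**Figure D2:**
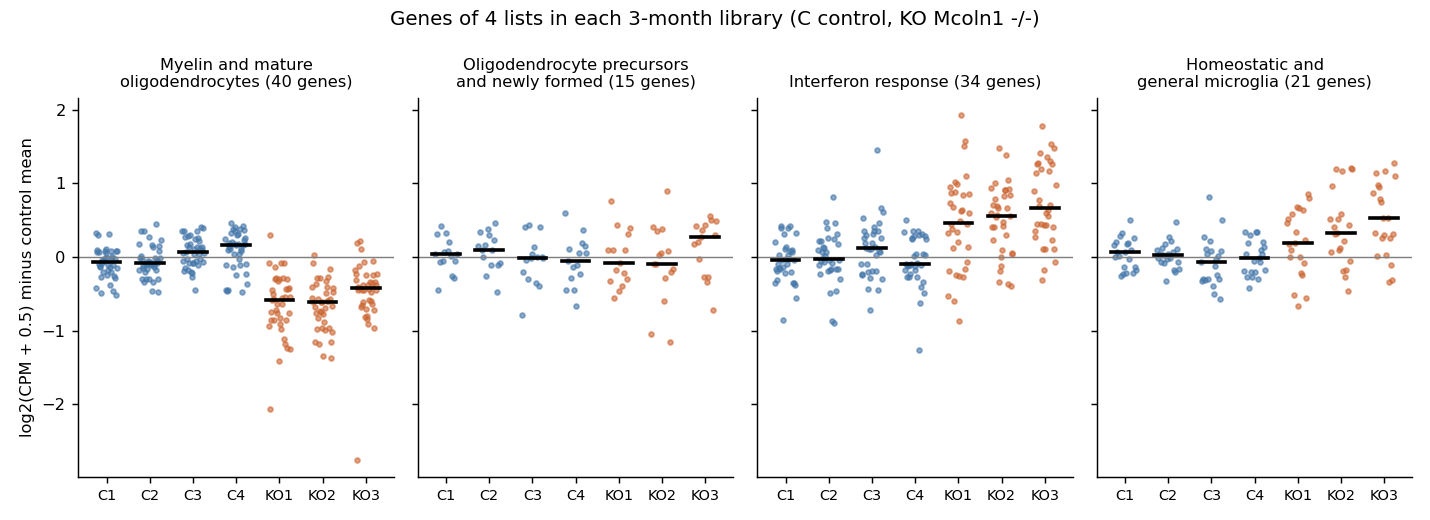
Each point is 1 tested gene in 1 library, as its log2(CPM + 0.5) minus the mean of the 4 controls (y axis), for 4 gene lists; C1 to C4 are controls, KO1 to KO3 Mcoln1 -/- libraries, and black bars are medians over the genes. The myelin medians of the Mcoln1 -/- libraries lie at −0.58, −0.61 and −0.42 and the interferon medians at 0.47, 0.56 and 0.67, while the precursor medians lie on both sides of 0.

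Lipid genes outside the sheath proteins had medians near that of all genes. In sphingolipid metabolism 21 of 26 listed genes were tested, none was DE and the median log2 fold-change was 0.02. Elovl1 and Cers2 take part in making myelin lipids with very long acyl chains. Elovl1 was at 49.97, 45.0, 54.1 and 52.3 CPM against 34.9, 31.7 and 38.4 CPM, and Cers2 at 109, 108, 109 and 102 CPM against 69.7, 93.8 and 82.7 CPM. Both lay below the controls in every Mcoln1 -/- library (log2 fold-changes −0.52 and −0.38), without passing the test, and Kdsr, an enzyme early in sphingolipid synthesis, lay wholly above them (0.28). These were 9.52% and 4.76% of the tested members, beside 1.88% and 2.28% of all tested genes. Of 31 genes of cholesterol and fatty acid synthesis, 29 were tested, none was DE, none separated the groups and the median was −0.06, with no log2 fold-change below −0.18.

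Genes of the interferon response lay higher. The list holds 51 genes, of which 41 were in the table and 34 were tested. Lgals3bp was the 1 DE gene among them, and it counts here and among the DE genes above. With the spread shared over ages 5 of 35 were called, all higher, beside 0.136% of all genes in that fit. In 14 of the 41 genes in the table every Mcoln1 -/- library lay above every control, against 2.48% of all genes in the table, and in no gene of the list did all lie below. The median log2 fold-change of the tested members was 0.64 (0.48 to 0.68 over the alternatives) and 30 of the 34 were above 0. The sum of the list was 504, 538, 540 and 496 CPM in controls and 725, 706 and 803 CPM in Mcoln1 -/- mice, with Ifi27 the most abundant.

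Among the factors that switch these genes on, Irf7, the master regulator of the response, was at 5.48, 4.73, 7.29 and 4.36 CPM in controls and at 21.8, 9.97 and 14.6 CPM in Mcoln1 -/- mice. Its log2 fold-change was 1.49 with a standard error of 0.30 (edgeR adjusted p = 0.130). Irf9, the DNA-binding part of the complex that interferon receptors activate, was at 15.5, 14.9, 13.7 and 19.4 CPM against 24.8, 29.9 and 23.5 CPM. In both genes the Mcoln1 -/- libraries stood above all controls. Ifnar1, a chain of the type I interferon receptor, was at 9.35, 9.46, 11.9 and 13.5 CPM against 22.3, 10.9 and 9.60 CPM, so that its groups overlapped.

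The effectors were mostly of low level. Ifit3, which binds viral RNA together with its relatives, was at 11.9, 12.4, 10.6 and 14.7 CPM in controls and at 23.1, 19.9 and 28.8 CPM in Mcoln1 -/- mice (log2 fold-change 0.96). Its close copy Ifit3b was at 1.93, 5.63, 4.26 and 4.75 CPM against 8.40, 11.8 and 14.6 CPM (1.46), and reads of these copies could be lost or split where only uniquely mapped reads were kept. Isg15, a ubiquitin-like modifier, was at 6.45, 9.01, 9.73 and 5.55 CPM against 22.3, 12.2 and 12.6 CPM (0.99). Ifi27l2a, a small interferon-induced membrane protein, was at 8.06, 9.46, 10.3 and 8.32 CPM against 16.8, 18.6 and 22.5 CPM (1.09). Each of the 4 separated the groups, and none was DE in the 3-month fit.

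The promoters of Cxcl10 and of 4 genes of the interferon list are shown because most, but not all, hold a match to a short motif. Of these 5, 4 hold and 1 lacks an exact match to a strict form of the short element through which interferon-activated factors bind. Looser forms were not searched for, so the lack of a match does not show that the element is absent. The sequences are those of RefSeq on GRCm38.p6, from 250 bases before to 50 bases after the gene start, 5′ to 3′ on the strand of the gene, and capitals mark every match to the motif made of GAAA, any 2 bases and GAAA again, on either strand (TTTC, any 2 bases and TTTC where the match is on the opposite strand).
Cxcl10 (chr5:92348840-92349139, minus strand): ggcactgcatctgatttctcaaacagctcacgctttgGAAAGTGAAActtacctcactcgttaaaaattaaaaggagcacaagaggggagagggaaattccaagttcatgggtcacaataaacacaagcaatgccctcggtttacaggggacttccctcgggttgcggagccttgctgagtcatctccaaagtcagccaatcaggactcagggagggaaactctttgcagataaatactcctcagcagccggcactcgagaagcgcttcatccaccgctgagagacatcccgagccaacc
Ifit3 (chr19:34583279-34583578, plus strand): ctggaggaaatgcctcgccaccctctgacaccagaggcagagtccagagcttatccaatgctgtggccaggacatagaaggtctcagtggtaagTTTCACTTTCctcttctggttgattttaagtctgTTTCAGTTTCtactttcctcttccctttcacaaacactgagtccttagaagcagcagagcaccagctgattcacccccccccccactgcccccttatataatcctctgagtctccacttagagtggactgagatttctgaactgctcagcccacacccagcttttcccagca
Ifit3b (chr19:34607707-34608006, plus strand): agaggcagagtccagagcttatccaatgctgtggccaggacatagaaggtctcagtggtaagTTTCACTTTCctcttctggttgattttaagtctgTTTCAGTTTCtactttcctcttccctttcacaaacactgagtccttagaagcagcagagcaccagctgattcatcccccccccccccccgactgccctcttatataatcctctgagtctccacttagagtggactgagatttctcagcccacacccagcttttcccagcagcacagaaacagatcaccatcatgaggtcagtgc
Isg15 (chr4:156200769-156201068, minus strand): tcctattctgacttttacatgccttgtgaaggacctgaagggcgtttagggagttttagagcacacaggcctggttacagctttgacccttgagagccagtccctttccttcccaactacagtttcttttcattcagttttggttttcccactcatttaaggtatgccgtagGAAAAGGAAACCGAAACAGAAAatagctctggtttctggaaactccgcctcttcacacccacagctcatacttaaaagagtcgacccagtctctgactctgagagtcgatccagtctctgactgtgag
Lgals3bp (chr11:118401910-118402209, minus strand): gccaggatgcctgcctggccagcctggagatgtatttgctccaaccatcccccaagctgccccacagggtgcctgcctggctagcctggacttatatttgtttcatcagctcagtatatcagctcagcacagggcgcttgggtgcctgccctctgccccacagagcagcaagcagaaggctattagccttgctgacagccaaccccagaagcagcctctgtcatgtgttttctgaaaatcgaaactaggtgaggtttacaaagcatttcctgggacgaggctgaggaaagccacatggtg
Cxcl10 held 1 match, Ifit3 and Ifit3b 2 each in nearly the same surroundings, Isg15 3 overlapping matches and Lgals3bp none. For Lgals3bp the RefSeq start lies inside the gene bounds given above, so its window reaches less far before those bounds. A promoter was found for 40 of the 51 listed genes, and 21 of them (52.5%) held at least 1 match, against 3.99% of the 27025 mouse genes with a RefSeq promoter sequence. Median log2 fold-changes were 0.75 over the 13 tested members with a match and 0.42 over the 16 without one. The promoters of Irf7 and Oasl2 of the same list, and those of the up-regulated genes Trem2 and Lyz2, are not shown and held none either. For the myelin list the motif ACAAAG, which Sox factors bind, was found on either strand in 9 of 28 promoters (32.1%, against 21.02% of all genes), and for the lysosomal list the motif of TFEB, TCAC followed directly by GTGA, in 4 of 45 (8.9%, against 1.12%). In these lists the medians were −0.54 over 9 tested myelin genes with the motif and −0.61 over 19 without it, and −0.06 over 3 tested lysosomal genes with the motif and 0.16 over 38 without it. A match describes the letters of the window and no more.

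Complement proteins tag debris and synapses for uptake. Of 19 listed genes 16 were in the table, 12 were tested and none was DE. With the spread shared over ages 3 of 13 were called, all higher, beside 0.136% of all genes in that fit. C1qa, C1qb and C4b had every Mcoln1 -/- library above every control (25% of the tested members, beside 2.28% of all tested genes) and none of the list had all below, and the list's median was 0.36. C1qb, the second chain of the first component, was at 188, 157, 168 and 193 CPM in controls and at 315, 276 and 318 CPM in Mcoln1 -/- mice (log2 fold-change 0.78, edgeR adjusted p = 0.0710). C1qc, the third chain, was at 116, 125, 111 and 159 CPM against 217, 147 and 205 CPM, so that its second Mcoln1 -/- library lay within the controls (log2 fold-change 0.57). C4b, a component that marks targets downstream of C1q, was at 23.9, 20.5, 21.9 and 25.4 CPM against 64.7, 30.4 and 49.3 CPM (log2 fold-change 1.08), and its near-identical copy C4a could share or lose reads under unique mapping.

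Of 23 genes of homeostatic and general microglia 22 were in the table and 21 were tested, Trem2 was DE, 5 of the 22 in the table lay wholly above the controls and 1 wholly below (all genes in the table: 2.48% and 1.96%), and the median log2 fold-change was 0.30, with 17 of the 21 tested above 0. Tyrobp, the adaptor through which Trem2 signals, was at 69.6, 70.3, 112 and 69.7 CPM in controls and at 138, 180 and 169 CPM in Mcoln1 -/- mice (log2 fold-change 1.01, edgeR adjusted p = 0.0710). Fcgr3, a receptor for antibody, was at 29.02, 24.1, 25.5 and 17.4 CPM against 35.7, 54.9 and 46.0 CPM (0.91), and Mpeg1, which makes pores in engulfed material, at 3.87, 5.63, 3.34 and 5.94 CPM against 7.56, 10.9 and 10.9 CPM (1.06). P2ry12, a nucleotide receptor of resting microglia, was at 17.4, 17.8, 14.0 and 12.3 CPM against 13.02, 17.7 and 22.2 CPM, and Tmem119, a surface protein of microglia, at 44.2, 39.9, 24.6 and 42.4 CPM against 24.8, 35.4 and 45.7 CPM. Their log2 fold-changes were 0.20 and −0.09, each changed sign when 1 library was left out, and their groups overlapped.

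Of 28 disease-associated microglia genes 24 were in the table and 20 were tested, with Lyz2 DE, and 7 of the 24 in the table (6 of the tested) lay wholly above the controls, beside 2.48% of all genes in the table. The median log2 fold-change was 0.16. Ctsd, a lysosomal protease, Cd63, a tetraspanin of late endosomes, and Lgals3, a galectin, were among those 7, at log2 fold-changes of 0.46, 0.25 and 0.84. Apoe, the lipid carrier of glia, had one of 0.10 and Spp1, secreted osteopontin, one of 0.11, with overlapping groups. Cst7, a cystatin of activated microglia, had too few counts for the 3-month fit, with 2, 1, 2 and 1 reads in controls and 2, 8 and 21 reads in Mcoln1 -/- mice, and was called with the shared spread. Ctss, a cathepsin of microglia that stands on the lysosomal list too, was at 125, 112, 88.1 and 112 CPM against 123, 212 and 239 CPM (log2 fold-change 0.81), so that Mcoln1 -/- library 1 lay within the range of the controls. This library also had the lowest of the 3 Trem2, Tyrobp and Fcgr3 levels.

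Genes of border macrophages and of blood-derived cells were scarce. Of 10 markers of border macrophages and monocytes 5 were in the table, of which only Pf4, the most abundant, was tested (log2 fold-change 0.45), and their sum was 17.1, 18.7, 11.9 and 9.51 CPM in controls and 23.9, 18.6 and 21.5 CPM in Mcoln1 -/- mice, with overlapping groups. Ccr2 and Ly6c2, which mark inflammatory monocytes, and Lyve1 were not in the table. Of 13 lymphocyte markers only Cd4 was in the table, at 7.13 to 10.3 CPM against 8.16 to 9.66 CPM. The 5 neutrophil markers in the table summed to 15.5, 14.9, 3.34 and 0.792 CPM against 12.2, 12.2 and 7.61 CPM. Their part in the microglia and interferon results was not tested.

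Astrocytes react to injury with new intermediate filaments. All 14 general astrocyte genes were tested, none was DE, none separated the groups and their median log2 fold-change was 0.11. Of 25 genes of reactive astrocytes 21 were in the table and 14 tested, none DE, with a median of 0.22 and 2 (14.3%, beside 2.28%) wholly above the controls. The sum over the 21 genes separated the groups, at 611, 593, 550 and 537 CPM in controls and 662, 667 and 739 CPM in Mcoln1 -/- mice, a ratio of the means of 1.20, with Gfap the most abundant. The median tested gene lay 0.33, 0.16 and 0.31 above the control mean (log2(CPM + 0.5)) in Mcoln1 -/- libraries 1 to 3. In control 1 it lay 0.29 above, so the groups overlapped on this measure. Over the alternatives the median log2 fold-change of the list ranged from 0.0009 to 0.30. Serpina3n, a secreted protease inhibitor of reactive astrocytes, was at 40.6, 38.3, 30.1 and 31.7 CPM against 60.9, 54.4 and 51.0 CPM (log2 fold-change 0.65, edgeR adjusted p = 0.585), whereas Gfap, the filament protein, overlapped between groups with 162, 127, 108 and 179 CPM against 176, 215 and 231 CPM (0.53).

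Lysosomal genes other than Mcoln1 mostly showed small differences. Ctss, given above, had the highest log2 fold-change of the hydrolase and membrane list (0.81) and was called with the spread shared over ages. Its groups overlapped. Of 58 hydrolases and membrane proteins 56 were in the table and 53 were tested, none was DE, 5 (9.43%) lay wholly above and 1 (1.89%) wholly below the controls, beside 2.28% and 1.88% of all tested genes, and the median log2 fold-change was 0.16. Ctsd, the main aspartic protease of the lysosome, was at 678, 654, 650 and 643 CPM in controls and at 925, 829 and 946 CPM in Mcoln1 -/- mice, which separates the groups at a log2 fold-change of 0.46, under the fold threshold. Grn, progranulin, was at 80.0, 65.8, 88.8 and 91.5 CPM against 117, 100 and 116 CPM (0.45). The list summed to between 5789 and 6138 CPM in controls and to 6534, 6489 and 6963 CPM in Mcoln1 -/- mice, a ratio of the means of 1.11.

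Among 18 mucolipins and lysosomal channels 14 were tested, and apart from Mcoln1 none was DE. Clcn7 and Ostm1, which together form the chloride exchanger of the lysosome, were at 47.4, 41.9, 46.2 and 36.8 CPM against 54.6, 49.4 and 52.9 CPM, and at 42.6, 36.9, 37.4 and 34.1 CPM against 44.1, 59.4 and 43.0 CPM. Their groups did not overlap, at log2 fold-changes of 0.28 and 0.37. Besides Mcoln1, 2 genes of the list lay wholly below the controls. With Mcoln1 counted, 21.4% of the tested members lay below and 14.3% above, beside 1.88% and 2.28% of all tested genes. Tmem63a, a mechanosensitive channel that also stands on the myelin list, was at 35.5, 29.3, 39.8 and 40.8 CPM against 26.5, 13.6 and 18.2 CPM (log2 fold-change −0.89, edgeR adjusted p = 0.539) and was called with the spread shared over ages. Slc11a2, a carrier that moves iron out of endosomes, was at 38.04, 33.8, 43.5 and 42.4 CPM against 31.5, 30.4 and 30.4 CPM (−0.35). All 39 genes of autophagy, mTOR and TFEB were tested, none was DE and the median was 0.01. Flcn, folliculin, and Uvrag, a factor of endosome and autophagosome maturation, lay wholly above the controls at log2 fold-changes of 0.42 and 0.44, and Tfeb wholly below (5.13% and 2.56% of the list, beside 2.28% and 1.88% of all tested genes). Tfeb, the transcription factor that drives lysosomal genes, was at 10.3, 10.8, 12.5 and 15.1 CPM in controls and at 9.66, 3.63 and 5.96 CPM in Mcoln1 -/- mice, the lowest log2 fold-change of that list (−0.90, edgeR adjusted p = 1.00).

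**Figure D3:**
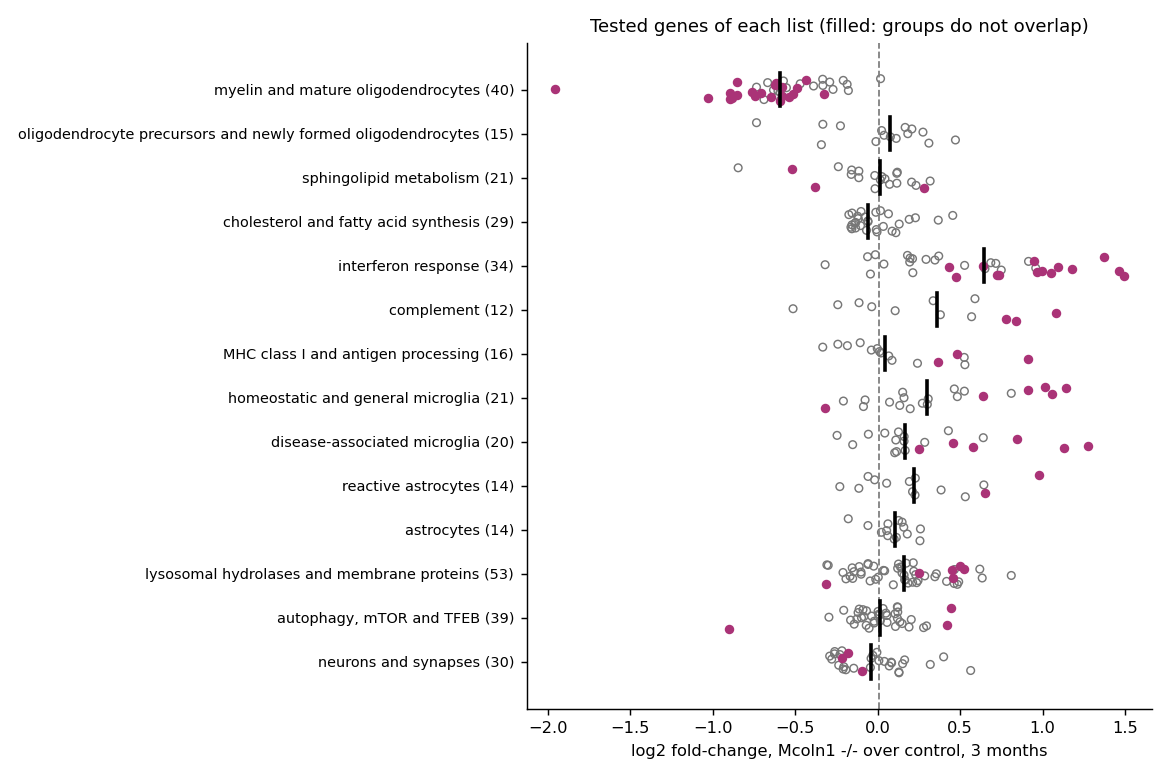
Log2 fold-change of Mcoln1 -/- over control at 3 months (x axis) for the tested genes of 14 lists, with the number of genes in brackets; filled points are genes whose groups do not overlap, black bars are medians and the dashed line is the median of all 11412 genes (0.01). The myelin list lies to the left with a median of −0.59 and the interferon list to the right with 0.64.

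The remaining lists gave no DE gene besides Cxcl10, which was the 1 call among 17 tested chemokines and cytokines (median log2 fold-change 0.08). In MHC class I and antigen processing the median of 16 tested genes was 0.04, while 3 of them (18.8%, beside 2.28% of all tested genes) lay wholly above the controls and none wholly below. Among these, Tap1, which carries peptides to class I molecules, was at 3.22, 6.31, 5.47 and 5.55 CPM against 9.66, 8.61 and 10.9 CPM (log2 fold-change 0.91), and H2-K1, a class I heavy chain with close copies, at 70.0, 70.0, 79.9 and 74.1 CPM against 87.8, 94.3 and 102 CPM (0.37). The light chain gene B2m overlapped between groups (0.53). The medians of the other lists were −0.01 for 14 of iron handling, −0.04 for 30 of neurons and synapses, −0.03 for 13 of calbindins and Purkinje cells and 0.12 for 20 immediate early genes. Wholly below the controls were 2 of the iron genes (14.3%, Trf and Slc11a2), 3 of the neuronal genes (10%, Syp, Sst and Nefl, with log2 fold-changes of −0.10, −0.22 and −0.18), 1 of the Purkinje cell list (7.69%, Pcp2) and 1 immediate early gene (5%, Fosb at −0.68), beside 1.88% of all tested genes. The immediate early gene Egr2 lay wholly above (5%, beside 2.28%) at 0.59. The medians were −0.06 for 10 striatal, −0.14 for 9 hypothalamic and 0.04 for 8 thalamic genes and 0.10 for 11 of the choroid plexus. They were −0.04 for 14 of endothelium and mural cells, 0.10 for 9 of meningeal fibroblasts and −0.11 for 6 of the ependyma. Of these, 1 striatal (10%) and 1 meningeal gene (11.1%) lay wholly below the controls, and 1 of the choroid plexus (9.09%) wholly above. Hypothalamic markers varied more between libraries than between genotypes, from 689 to 1777 CPM in controls and from 519 to 1359 CPM in Mcoln1 -/- mice. Calb1 and Calb2, the calcium-binding proteins calbindin and calretinin, were at 43.2 ± 4.98 and 315 ± 35.1 CPM (SD, n = 4) in controls and at 47.2 ± 11.1 and 307 ± 11.3 CPM (SD, n = 3) in Mcoln1 -/- mice. Pituitary markers, mostly Pomc, summed to 14.3 ± 3.16 CPM (SD, n = 4) against 14.7 ± 10.3 CPM (SD, n = 3), and the 2 tested genes of other organs had a median log2 fold-change of 0.13.

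Genes beside the knocked-out locus, which travel with the disrupted allele, were examined within 2 Mb. There were 24 neighbors with counts, of which 18 were tested and none was DE, with log2 fold-changes from −0.46 to 0.37. In all, 2 of the tested neighbors lay wholly below the controls and 0 wholly above, beside 1.88% and 2.28% of all tested genes. They were Ctxn1, a neuronal membrane protein, at 317, 385, 399 and 572 CPM against 313, 285 and 316 CPM, and Pcp2, a Purkinje cell gene, at 468, 541, 604 and 592 CPM against 439, 464 and 459 CPM. Pnpla6, which begins just after the end of Mcoln1 on the same strand, was at 33.6 ± 7.64 CPM (SD, n = 4) against 27.0 ± 4.86 CPM (SD, n = 3), with overlapping groups.

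Some features differed between single libraries. Reads of the Y-linked gene Kdm5d were found in controls 1 and 2 and Mcoln1 -/- libraries 1 and 2, where it was at 7.09, 7.66, 7.98 and 9.97 CPM, and the 3 other libraries had none of its reads. Of those 3, control 4 had 1 read of another Y-linked gene, Ddx3y (0.396 CPM). In controls 3 and 4 and Mcoln1 -/- library 3, Xist, which female cells express, was at 6.99, 2.38 and 3.31 CPM, so both patterns occur in each group. With the level of Xist as a covariate the same 5 genes were called. Alas2, the 1 red blood cell marker in the table and an enzyme of heme synthesis, was at 74.2, 108, 11.6 and 16.2 CPM in controls and at 255, 45.3 and 32.4 CPM in Mcoln1 -/- mice. Mcoln1 -/- library 1 thus had the highest level, and it also had 512 CPM of Ube2l6, a ubiquitin-conjugating enzyme that interferon induces and red cell precursors express, where the other 6 libraries had 16.2 to 62.2 CPM. Without that library the log2 fold-change of Ube2l6 turned from 1.91 to −0.54, and that of Alas2 from 1.05 to −0.48.

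In a principal component analysis of the 7 libraries, 36.7% of the variance fell on the first axis and 18.2% on the second. The difference between genotypes made up 6.81% of the spread along the first and 24.2% along the second.

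The 3-month comparison was set beside those of the other ages, each tested in the same way on its own libraries. The controls at 1 and 2 months were all Mcoln1 +/-, but the 5 controls at 7 months were 3 Mcoln1 +/- and 2 wild-type libraries, so every 7-month value rests on a mixed control group. For 1 of these Mcoln1 +/- libraries the deposited count column carries a different age in its name than the sample label. The numbers of DE genes were 48 of 11051 at 1 month (0.434%, 4 against 4 libraries), 33 of 10599 at 2 months (0.311%, 4 against 4) and 97 of 11227 at 7 months (0.864%, 5 against 5). All 33 genes called at 2 months were tested at 3 months and had the same direction there. In 22 of them the groups did not overlap at 3 months, in that direction. Of all genes tested at 3 months, 2.28% lay wholly above the controls and 1.88% wholly below. Of the 33, 4 were called at both ages (Lgals3bp, Lyz2, Mcoln1 and Trem2). Cxcl10, the fifth gene of the 3-month fit, had too few counts to be tested at 2 months. All 5 were tested at 1 month and had the same direction there, and 2 of them were DE. At 7 months all 5 were DE, in a table counted separately. Over all genes tested at both ages, 50.8% of 10583 had the same direction at 2 and 3 months. For 1 and 3 months the share was 58.1% of 10949.

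**Figure D4:**
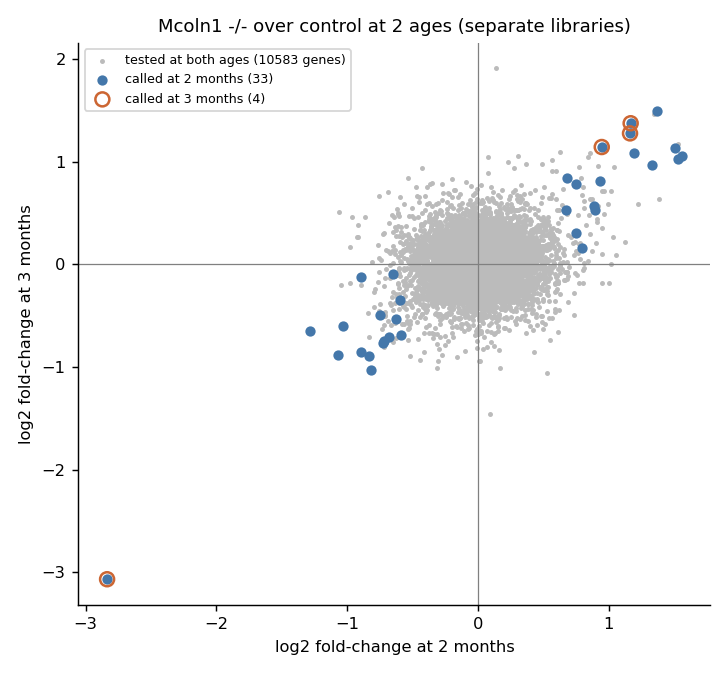
Log2 fold-change of Mcoln1 -/- over control at 2 months (x axis) and at 3 months (y axis) for the 10583 genes tested at both ages, from separate libraries. Blue points are the 33 genes called at 2 months, all on the same side of 0 at 3 months, and orange rings are the 4 genes called at both ages.

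The difference between the 3-month effect and the effect at a younger age was tested in the 23-library fit. No gene passed an adjusted p of 0.05 by edgeR against 2 months (0%), where 584 had an unadjusted p under 0.05 (4.95%) and the lowest adjusted p was 0.975. None passed against 1 month either (0%), with 257 genes under 0.05 unadjusted (2.18%) and a lowest adjusted p of 1.00. DESeq2 called none in both contrasts. Arl1, Lmf1, Thap1 and Tubb4a were among the genes with the smallest p against 2 months. Lmf1, a factor that matures lipases, was at 37.1, 36.9, 34.7 and 41.2 CPM in controls and at 18.5, 19.5 and 27.8 CPM in Mcoln1 -/- mice at 3 months, but at 27.7 to 32.3 CPM and 29.1 to 36.1 CPM at 2 months. Tubb4a, a tubulin that oligodendrocytes use, was at 358, 345, 344 and 459 CPM against 263, 200 and 314 CPM at 3 months and at 248 to 333 CPM against 276 to 351 CPM at 2 months. The adjusted p of edgeR for the difference between ages was 0.975 in both.

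Against 1 month the 5 genes were Lgals3bp, Gsn, Gna15, Pygl and Cant1. The log2 fold-change of Lgals3bp was 0.24 at 1 month, 1.17 at 2 months, 1.37 at 3 months and 1.88 at 7 months, and the 3-month effect was 1.13 larger than that at 1 month (edgeR adjusted p = 1.00). Gsn, gelsolin, an actin-severing protein of myelinating cells, had log2 fold-changes of −0.91 at 1 month and −0.30 at 3 months.

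The lists stood differently across the ages. The median log2 fold-change of the myelin list was −0.64 at 1 month, −0.58 at 2 months, −0.59 at 3 months and −0.42 at 7 months, with 22, 12, 0 and 2 members DE and all of these lower. The shares of all tested genes called lower were 0.389%, 0.151%, 0.00876% and 0.0445%. That of the interferon list was 0.19, 0.56, 0.64 and 1.32, with 0, 3, 1 and 23 members DE and all of these higher, where 0.0452%, 0.16%, 0.0351% and 0.819% of all tested genes were called higher. The complement medians were 0.32, 0.36, 0.36 and 0.82 and those of the homeostatic and general microglia list 0.28, 0.36, 0.30 and 0.60. Libraries per group differ between ages, and these differences between lists and ages were not tested.

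**Figure D5:**
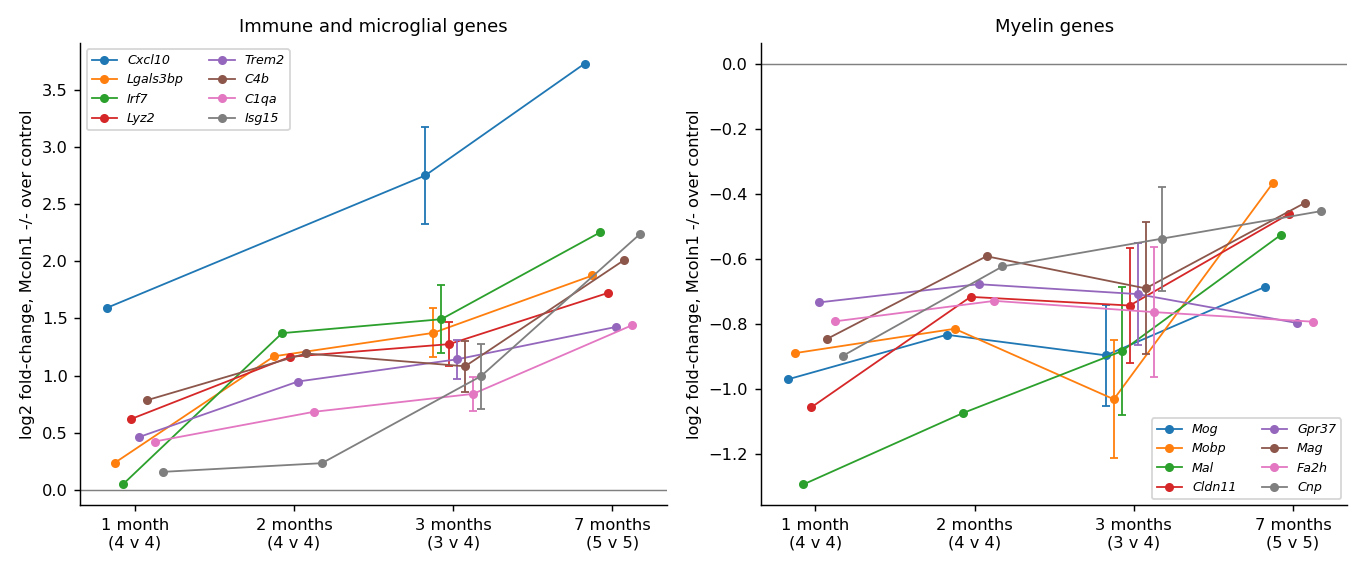
Log2 fold-change of Mcoln1 -/- over control (y axis) at 1, 2, 3 and 7 months (x axis, evenly spaced categories with the number of Mcoln1 -/- and control libraries) for 8 immune and microglial and 8 myelin genes; bars at 3 months are standard errors, Cxcl10 has no value at 2 months, and the 7-month controls include 2 wild-type libraries. At 3 months the immune genes lie between 0.84 and 2.75 and the myelin genes between −1.03 and −0.54.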

How the data were processed

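Brain RNA of 7 libraries at 3 months (4 control, 3 Mcoln1 -/-) was analysed, and the 26 libraries of other ages were used for comparison and, for 1 and 2 months, in the fit with a shared spread, with heterozygous and wild-type controls pooled at 7 months. The authors aligned bulk MARS-seq reads to mm10 with STAR and deposited raw counts per gene, made from uniquely mapped reads only. The submitters' processing notes also name cutadapt and HTSeq, without versions. The handling of molecular identifiers and the annotation release are not given in the sources used here. The deposited normalized values (the same counts divided by a size factor) and the authors' own fold-changes and p-values were not used. In 23 rows a date stands in place of the gene name. Some genes are not reported here.

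The counts of the 7 libraries were tested here by quasi-likelihood in edgeR 4.0.16 under R 4.3.3, with TMM, filterByExpr by genotype and Benjamini-Hochberg adjustment over the 11412 genes tested. Standard errors were taken from the F statistic. Differences between ages were contrasts among 23 libraries with 1 mean per age and genotype. The p values of the permutation test were exact and 2-sided on log2(CPM + 0.5). The alternatives tried were DESeq2 1.42.0, its size factors in edgeR, no count filter, at least 10 counts in every library, the replicate number as a block, all 23 libraries in one fit, the Xist level as a covariate and leaving out each library. No pair of libraries of a group agreed within counting noise (chi-square per gene from 3.32 to 11.6).

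The comparison and the 33 gene lists were chosen with earlier results of these data known. Under the rule for named genes, those eligible were Mcoln1 and its relatives, the DE genes, in each list the called and the 3 uncalled members with the smallest p, sex-linked genes, the 5 smallest p of each difference between ages and called genes near Mcoln1. Not all are printed, and lists close to the median of all genes are mostly given by their median alone. Other genes named were chosen after their values had been seen. Coordinates are 1-based on GRCm38 (GENCODE M21, which held 96.3% of the gene names).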

Additional observations from a re-analysis of the deposited data

Results flagged for a closer look

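Among the 4 controls, single libraries stood far from the other 3 in 5 of the 79 genes looked at, where chance gives about 1 in 20. Tyrobp, the microglial adaptor, was at 112 CPM in control 3 and at 69.6 to 70.3 CPM in the other controls, still below the lowest Mcoln1 -/- library (138 CPM). Control 3 was also the high one for the chemokine Ccl5, with 3.95 CPM. Control 4 had 102 CPM of Cers2, the lowest control, and 459 CPM of Tubb4a, the highest. Control 1 had 7.09 CPM of Adgre1, the macrophage antigen F4/80, above the other controls.

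Thap1, a zinc-finger factor known from dystonia, had a log2 fold-change of 0.47 at 3 months, with every Mcoln1 -/- library (20.8 to 24.9 CPM) above every control (11.5 to 20.3 CPM). At 2 months its log2 fold-change was −0.50 and every Mcoln1 -/- library (17.3 to 19.2 CPM) lay below every control (20.98 to 34.3 CPM). The difference between the ages had an edgeR adjusted p of 0.975.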

How the results depend on the processing

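The log2 fold-change of Mcoln1 kept its direction and its call under all 14 alternatives and without each library in turn lay between −3.50 and −2.75. The other calls depended on the setting. The number of genes higher in Mcoln1 -/- mice was 4 and became 10 with DESeq2, 16 with all 23 libraries in one fit and 0 with the replicate block, and without 1 library it ranged from 0 to 8. The number lower was 1 and became 7 with DESeq2, 15 with all 23 libraries and 3 when low counts were not filtered, and without 1 library it ranged from 1 to 2. The cause of these shifts was not tested. Deviations of libraries with the same replicate number correlated at −0.25, 0.38 and −0.30 over 8662 genes. The control of the same number was the best match for Mcoln1 -/- library 2, but not for libraries 1 and 3. Whether the numbers pair the libraries was not tested. The counts of genes whose effect differed between ages stayed at 0 under every alternative run, with 0 to 0 without 1 library. Some log2 fold-changes changed sign when 1 library was left out, with ranges of −0.48 to 1.69 for Alas2, −0.54 to 2.46 for Ube2l6, −0.018 to 1.19 for Ddx3y, −0.33 to 0.11 for Tmem119, −0.13 to 1.18 for Kdm5d, −0.020 to 0.37 for P2ry12 and −0.082 to 0.045 for Calb2. Calb2 also turned with the replicate block, to 0.043. With 2161558 to 4422461 counts a library, Cst7 had at most 2 reads in a control and could not be tested in the fit of the 7 libraries.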

Other observations

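Some genes on none or few of the lists had groups that did not overlap, and they were chosen for mention after their values had been seen. None was DE in the 3-month comparison. AF251705, a receptor of myeloid cells, was at 8.38, 9.23, 6.99 and 9.11 CPM in controls and at 15.5, 23.6 and 15.2 CPM in Mcoln1 -/- mice (log2 fold-change 1.09, edgeR adjusted p = 0.234), and it was DE at 7 months with a log2 fold-change of 1.68. Lyn, a kinase that acts below receptors of myeloid cells, was at 4.84, 7.21, 9.73 and 4.36 CPM, below all 3 Mcoln1 -/- libraries, of which the highest had 14.9 CPM (log2 fold-change 0.94). On the lower side, Itgb4, an adhesion receptor subunit, was at 23.5, 26.4, 31.3 and 33.3 CPM against 17.7, 15.4 and 16.9 CPM (log2 fold-change −0.77), and it was called with the spread shared over ages. Itgb4 was DE at 1 month with a log2 fold-change of −1.01, but not at 2 or 7 months (−0.31 and −0.68). Il33, an alarmin that oligodendrocytes and astrocytes hold, was at 74.8, 85.1, 82.1 and 93.5 CPM against 52.1, 70.3 and 72.5 CPM (log2 fold-change −0.37).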
